A study of Mus musculus with 35 samples.

Results

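The step from 48 to 72 h of doxycycline (Dox), the third day of GATA6 induction, was described here by comparing the 3 libraries taken at 72 h with the 3 taken at 48 h. These are 6 of the 35 RNA-seq libraries of the series and 6 of the 23 in its induction table. The cells were mouse KH2 embryonic stem (ES) cells of a C57BL/6 x 129/Sv background that carry a GATA6-3×HA transgene under Dox control. The lines were clones selected for the transgene. They were kept with LIF and serum on mitotically inactive mouse embryonic fibroblast (MEF) feeders and received 1 µg/mL Dox for the stated time, so that the 48 and 72 h groups shared the transgene, the drug and the medium and differed in its duration. Feeders were taken out by adsorption before lysis. The other groups used below were the same cells at 0, 16, 24, 96 and 168 h of Dox (3 libraries each). XEN cells (2 libraries), an extra-embryonic endoderm line, here wild-type X10 of CD1 background, were used as well. The 16 h libraries entered the fit over all 23 libraries and the plot of levels against hours of Dox. No comparison with 16 h is reported. The study describes the libraries of a time point as independent replicates. The p-values rest on the spread between libraries within groups, estimated over all 23 induction libraries and not from the 48 and 72 h libraries alone. They cover no variation beyond these libraries. Of the 44853 genes of the table, the 13296 with a mean of at least 1 TPM at 48 or 72 h were tested. TPM, the unit of the table, gives the portion of all transcripts in a library that comes from a gene after correction for length, so a sequencing depth cannot be read from it.

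Primitive endoderm (PrE) is the layer of the early embryo that lines the blastocyst cavity and later yields visceral and parietal endoderm. Parietal endoderm lays down Reichert's membrane, a thick basement membrane rich in type IV collagen and laminin, while visceral endoderm takes up and carries nutrients. GATA6 is the transcription factor that opens this programme, and GATA4, SOX17 and FOXA2 act with it. Pluripotent cells instead hold a network built around OCT4 (Pou5f1), SOX2, NANOG and ESRRB, and signal among themselves through NODAL and FGF4.

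The inducer was examined first. Gata6 was at 177, 173 and 140.4 TPM at 48 h and 188, 201 and 196 TPM at 72 h, a log2 change of 0.26 ± 0.09 (SE; adjusted p = 0.0291) that is under the fold minimum used for a call, and this gene-level value does not separate the transgene from the endogenous gene. Gata4 was at 248, 251 and 226 TPM at 48 h and 323, 353 and 304 TPM at 72 h, all 3 libraries above those of 48 h, with a log2 change of 0.43 ± 0.12 (SE; adjusted p = 0.00976).

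The 72 h libraries did not agree equally well with each other. Pearson correlations across the genes tested, on log2(TPM + 1), were 0.988 between replicates 1 and 2 and 0.9627 and 0.9655 between replicate 3 and these, whereas the 48 h libraries correlated at 0.9848 to 0.9899. Replicate 3 correlated with the 96 h libraries at 0.9827 to 0.9837 and with the 48 h libraries at 0.9619 to 0.9758. Replicates 1 and 2 correlated with the 96 h libraries at 0.9633 to 0.9721 and with the 48 h libraries at 0.9546 to 0.9634. Replicate 3 thus stood apart within its own time point, and it correlated more closely than replicates 1 and 2 did with each library of both neighbouring times. It was more than 1 log2 unit above the mean of replicates 1 and 2 in 277 genes and more than 1 unit below in 714, while for any 48 h library against the other 48 h libraries such genes numbered 52 to 90 in either direction. The labels name no batch or date for these libraries, and the cause of the split was not tested. Main results are therefore given with all 3 libraries at 72 h, with replicates 1 and 2 only, and with replicate 3 only. Replicate 3 against 48 h in that last form rests on 1 library whose spread is taken from the other groups.

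Markers of cells that the sample could also hold were summed in each library. The 14 fibroblast genes listed for the feeders summed to 90.25, 85.79 and 117.7 TPM at 48 h and to 66.73, 79.13 and 193.4 TPM at 72 h, so replicate 3 was the highest at both times and the groups overlapped. Of the 11 fibroblast genes tested, limma called 0 in either direction, and 0 had an unadjusted p under 0.05, which 24.3% of all genes tested passed with higher and 19.2% with lower values at 72 h. None of the 14 was under 0.1 TPM in all 3 libraries of either time. Thy1, a fibroblast surface antigen, was at 2, 2.90 and 18.5 TPM at 48 h and 2.91, 2.87 and 21.4 TPM at 72 h, high in replicate 3 of both times. Trophectoderm markers summed to 96.3 to 106.0 TPM at 48 h and 110.3 to 134.0 TPM at 72 h, with Elf5 under 0.1 TPM in all 72 h libraries. Of 9 tested, 1 was called higher and 0 lower, beside 2.22% and 1.56% of all genes. The called marker was Plac1, at 2.94, 5.91 and 3.03 TPM at 48 h and 19.7, 15.9 and 9.88 TPM at 72 h. By the adjusted p alone 4 of the 9 were higher and 1 lower, beside 18.6% and 14.6% of all genes. The median change of the 9 was 0.59, and it was 0.69, 0.61 and 0.24 in 72 h replicates 1, 2 and 3. Markers of 2-cell-like cells summed to 0.447 to 1.45 TPM at 48 h and to 4.14 to 6.06 TPM at 72 h, where Zscan4f, a member of a family of near-identical copies, was called higher (1 of 2 tested). Markers of mesoderm and definitive endoderm summed to 10.1 to 11.5 TPM and to 12.4 to 19.0 TPM, with 0 of 3 called by limma, 2 under an unadjusted p of 0.05, Mesp1 under 0.1 TPM in all 48 h libraries, and Gsc and Sox1 in all 72 h libraries. The part of these cells in the results below was not tested. In bulk RNA, more cells of a type and more RNA per cell cannot be told apart.

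The third day raised 295 genes (2.22% of the genes tested) and lowered 208 (1.56%). A call here required an adjusted p under 0.05 in a limma fit over all 23 induction libraries, with Benjamini-Hochberg adjustment over the 13296 genes, and a change above 1 on the log2(TPM + 1) scale, which understates the change of low genes. After median-of-ratios rescaling the counts were 268 and 252. With only the 48 and 72 h groups in the fit they were 207 and 174. The median change of the called genes was 1.25 among those higher and -1.20 among those lower, against 0.04 over all genes tested. Together the higher genes went from a summed mean of 9144 TPM at 48 h to 22960 TPM at 72 h, and the lower genes from 5626 to 2229 TPM. In 265 of the 295 and 198 of the 208 the 3 libraries of each time did not overlap, where all genes tested gave 2646 with 72 h above (19.9%) and 2170 with 72 h below (16.3%). Among the higher genes, 47 had a mean under 1 TPM at 48 h and 125 at 0 h. Among the lower genes, 38 had fallen under 1 TPM by 72 h. By the annotation, 274 of the higher and 179 of the lower genes were protein coding. Without the fold minimum, 2470 genes (18.6%) passed with higher and 1947 (14.6%) with lower values at 72 h.

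The split among the 72 h libraries moved these numbers. With replicates 1 and 2 only, 586 genes were called higher (4.41%) and 293 lower (2.2%), among them 281 of the 295 and 172 of the 208. With replicate 3 only, 183 were called higher (1.38%) and 399 lower (3.0%), among them 98 of the 295 and 132 of the 208; these sets all share the 48 h libraries. Calls in opposite directions were few, 10 genes higher with replicates 1 and 2 and lower with replicate 3, and 2 genes the other way, Acta2 and Trib2. Of the 586, 414 had replicate 3 on the same side of the 48 h mean, as had 252 of the 293.

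**Figure D1:**
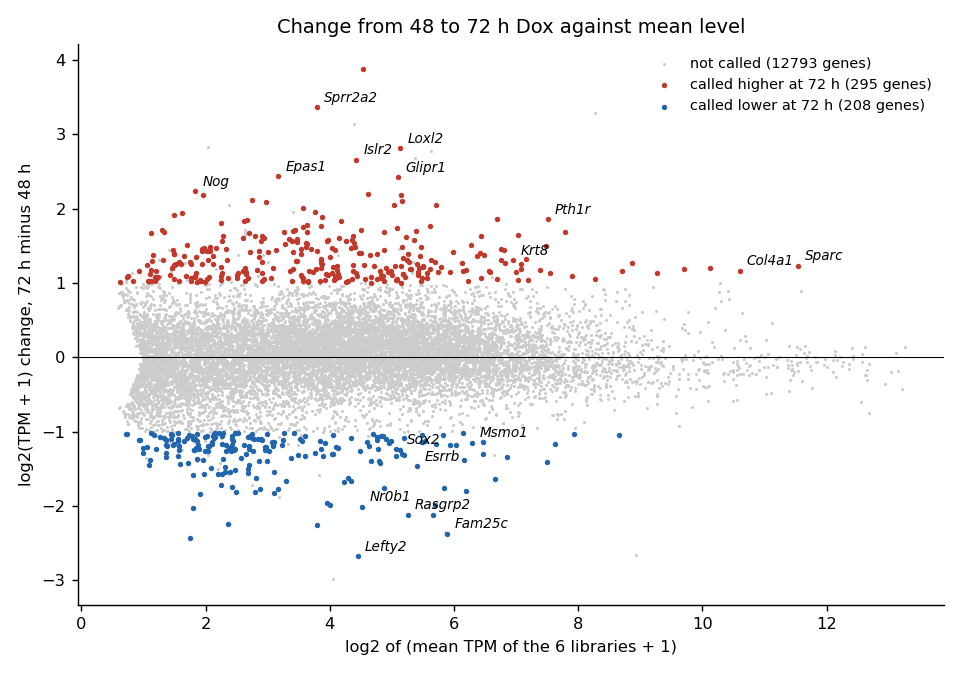
Change in log2(TPM + 1) from 48 to 72 h of Dox (vertical axis) against the log2 mean level of the 6 libraries plus 1 (horizontal axis), each point a gene: red, the 295 called higher; blue, the 208 called lower; grey, not called. Type IV collagen and Sparc are among the most abundant genes called higher, while the largest changes, such as Sprr2a2 at 3.36 and Lefty2 at -2.68, lie at low to middle levels.

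**Figure D2:**
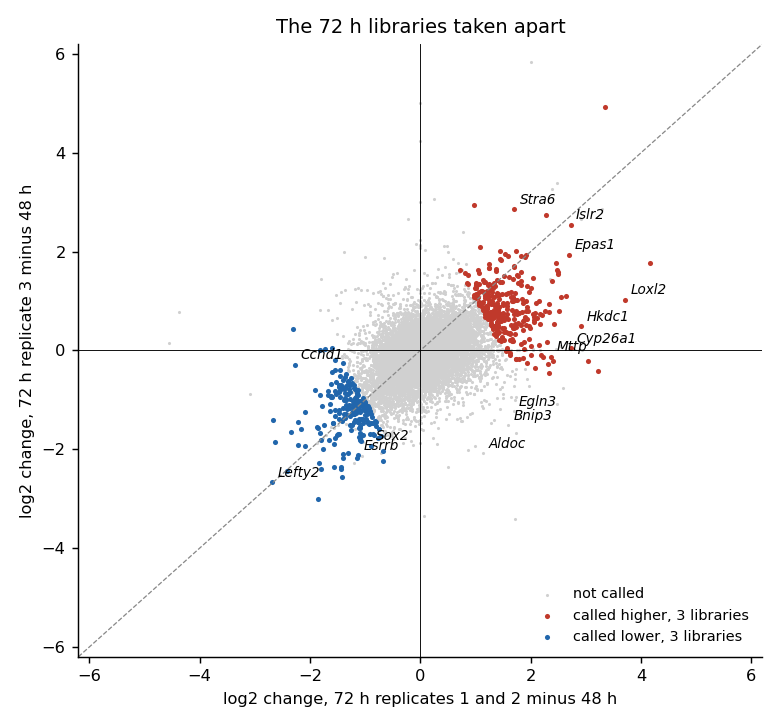
Log2 change from 48 h in 72 h replicate 3 (vertical axis) against that in 72 h replicates 1 and 2 (horizontal axis), each point a gene coloured by its call with all 3 libraries; the dashed line marks equal change. Islr2 and Lefty2 lie near the line, Loxl2 and Hkdc1 far below it, and Bnip3, Aldoc and Egln3 are above 0 in replicates 1 and 2 and below 0 in replicate 3.

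The largest rises were taken from the 214 higher genes whose libraries did not overlap and whose mean reached 5 TPM. In order they were Sprr2a2, Loxl2, Islr2, Epas1, Glipr1, Pdpn, Gm8332, Prss35, Lpar3 and Hkdc1. Sprr2a2 (chr3:92215920-92256724 in mm10), which codes for a small proline-rich protein of epithelial cells, was at 0.599, 1.71 and 0.762 TPM at 48 h and 34, 34.5 and 5.72 TPM at 72 h. It was low in all 48 h libraries and was still above all of them in 72 h replicate 3; its log2 change was 3.36 ± 0.41 (SE; adjusted p = 9.25e-06). Sprr2a2 has near-identical neighbours of the same family, so the split of reads among them is uncertain. Loxl2 (chr14:69609068-69695834), a lysyl oxidase that cross-links collagen IV, was at 5.2, 5.54 and 6.60 TPM at 48 h and 91.0, 84.2 and 12.7 TPM at 72 h. Here 72 h replicates 1 and 2 were far above replicate 3, and the log2 change was 2.82 ± 0.44 (SE; adjusted p = 0.000128), against 3.71 in replicates 1 and 2 and 1.02 in replicate 3. Islr2 (chr9:58196297-58204319), which codes for a membrane protein with leucine-rich repeats, was at 4.57, 6.07 and 4.03 TPM at 48 h and 36.5, 38.5 and 33.0 TPM at 72 h. All 3 of its 72 h libraries rose alike, by 2.66 ± 0.14 (SE; adjusted p = 1.73e-09). 

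Epas1 (chr17:86753700-86833410) encodes HIF-2α, a transcription factor that responds to low oxygen. It was at 1.99, 1.90 and 1.34 TPM at 48 h and 17.2, 16.1 and 9.42 TPM at 72 h, without overlap, and changed by 2.44 ± 0.22 (SE; adjusted p = 5.42e-07). Before Dox the mean of Epas1 had been 14.2 TPM, after 24 h it was 2.90 TPM, and it went on to 44.5 TPM by 96 h and 269 TPM by 168 h, so the third day turned a fall into a rise. Glipr1 (chr10:111985448-112002631), a secreted cysteine-rich protein, was at 9.86, 14.2 and 6.11 TPM at 48 h and 54.0, 46.0 and 69.4 TPM at 72 h, and there replicate 3 was the highest. Pdpn (chr4:143267431-143299564), the mucin-like membrane protein podoplanin, was at 8.44, 7.74 and 6.30 TPM at 48 h and 47.0, 46.3 and 24.5 TPM at 72 h and changed by 2.19 ± 0.24 (SE; adjusted p = 3.04e-06). Prss35 (chr9:86743649-86758443), a protease-like secreted protein, and Lpar3 (chr3:146220963-146286186), a receptor for lysophosphatidic acid, changed by 2.18 and 2.12. Hkdc1 (chr10:62383137-62422491), a hexokinase-like enzyme, was at 9.59, 11.5 and 9.12 TPM at 48 h and 82.6, 81.3 and 14.5 TPM at 72 h. Replicate 3 of Hkdc1 was only slightly above 48 h, and its change of 0.49 did not reach the fold minimum. Gm8332, a gene model without a known product, was listed at 0 in 48 h replicates 1 and 2 and at 1.24 TPM in replicate 3, and at 4.64, 8.36 and 3.02 TPM at 72 h. The largest fitted change of any higher gene, 3.88, was that of AL731706.2, named after its values were seen: it was listed at 0 in all 48 h libraries and in 72 h replicate 1, and at 103.6 and 29.2 TPM in replicates 2 and 3, so its libraries overlapped.

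Promoters of the leading rises are shown as a description of sequence, and these genes were chosen for their rise in this step. Of the 10, 6 had an entry among the RefSeq promoters (GRCm38.p6), which run from 250 bases before to 50 after a start, and the 4 with the largest rises are given 5′ to 3′ with 3 motifs searched on both strands in capitals: AGATAA and its variant with the letters TGATAA, which GATA factors bind, and ACAAT, which SOX factors bind.
Sprr2a2, chr3:92250397-92250696, plus strand: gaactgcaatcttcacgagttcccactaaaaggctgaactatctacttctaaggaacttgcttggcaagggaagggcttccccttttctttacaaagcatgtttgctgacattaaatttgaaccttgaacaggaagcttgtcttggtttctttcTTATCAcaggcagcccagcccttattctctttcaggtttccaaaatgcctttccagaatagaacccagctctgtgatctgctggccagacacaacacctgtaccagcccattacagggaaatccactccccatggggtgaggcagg
Islr2, chr9:58204270-58204569, minus strand: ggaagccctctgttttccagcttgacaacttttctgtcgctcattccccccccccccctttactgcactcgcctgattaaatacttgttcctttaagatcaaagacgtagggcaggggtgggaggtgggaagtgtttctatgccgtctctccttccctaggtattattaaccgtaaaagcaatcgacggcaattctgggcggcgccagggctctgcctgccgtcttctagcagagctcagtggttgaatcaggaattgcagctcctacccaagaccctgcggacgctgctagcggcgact
Pdpn, chr4:143299515-143299814, minus strand: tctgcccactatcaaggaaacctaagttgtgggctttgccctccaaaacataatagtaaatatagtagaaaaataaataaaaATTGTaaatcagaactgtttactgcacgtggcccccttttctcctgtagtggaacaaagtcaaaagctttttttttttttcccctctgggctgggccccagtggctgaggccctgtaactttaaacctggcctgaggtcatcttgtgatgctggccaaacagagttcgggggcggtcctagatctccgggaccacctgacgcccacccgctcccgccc
Prss35, chr9:86743383-86743682, plus strand: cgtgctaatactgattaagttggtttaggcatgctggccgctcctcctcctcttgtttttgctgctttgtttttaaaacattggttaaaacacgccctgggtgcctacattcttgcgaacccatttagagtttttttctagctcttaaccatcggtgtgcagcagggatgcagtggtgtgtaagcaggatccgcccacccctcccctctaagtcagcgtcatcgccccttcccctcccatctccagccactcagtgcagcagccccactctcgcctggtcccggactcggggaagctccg
The Sprr2a2 window holds 1 TGATAA, read on the reverse strand from position 155 of the window, and the Pdpn window 1 ACAAT, read on the reverse strand from position 83. The Islr2 window shown is the first of 3, none of which holds these letters, nor does that of Prss35. AGATAA was present in 11.2% of all 32851 windows of the table and in 8.73% of the first windows of 229 higher genes, 6.08% of 148 lower genes and 5.95% of the 9961 genes tested that had one. For TGATAA these shares were 9.05%, 3.06%, 6.76% and 3.75%, and for ACAAT 31.0%, 18.8%, 18.9% and 19.5%. These shares were not tested against each other, and a match is a description of the sequence only.

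The largest falls were taken in the same way from 136 genes. They were Lefty2, Fam25c, Apobec2, Hist1h2an, Rasgrp2, Stmn2, Nr0b1, Gldc, Cpn1 and Krt42. Lefty2 (chr1:180893108-180899103), a secreted antagonist of NODAL, was at 35.1, 24.0 and 51.7 TPM at 48 h and 3.69, 5.80 and 4.72 TPM at 72 h. All 72 h libraries were below all 48 h libraries, and the change of -2.68 ± 0.32 (SE; adjusted p = 6.82e-06) was as large in replicates 1 and 2 (-2.68) as in replicate 3 (-2.66). Fam25c was at 87.3, 85.6 and 122 TPM at 48 h and 13.8, 15.7 and 26.2 TPM at 72 h and Apobec2, a cytidine deaminase relative best known from muscle, at 19.12, 14.4 and 32.1 TPM at 48 h and 2.25, 2.54 and 7.22 TPM at 72 h. Their libraries did not overlap between the times, and they changed by -2.37 and -2.25. Rasgrp2, an exchange factor for RAP GTPases, was at 68.1, 50.6 and 64.1 TPM at 48 h and 11.2, 13.3 and 15.2 TPM at 72 h, and Stmn2, a regulator of microtubules, at 85.4, 71.0 and 85.1 TPM at 48 h and 15.6, 14.4 and 24.7 TPM at 72 h. Both were lower in all 72 h libraries, and Stmn2 changed by -2.11 ± 0.15 (SE; adjusted p = 6.74e-08). Gldc, the glycine-cleaving enzyme that is high in ES cells, changed by -1.98 ± 0.25 (SE; adjusted p = 1.3e-05), Cpn1, a carboxypeptidase subunit, by -1.98 ± 0.15 (SE; adjusted p = 7.45e-08), and Krt42, a keratin expressed in ES cells, by -1.96 ± 0.20 (SE; adjusted p = 1.82e-06). Hist1h2an, which codes for a histone H2A with near-identical copies, was at 7.98, 4.37 and 9.77 TPM at 48 h and 2.09, 0.588 and 0 TPM at 72 h, with an adjusted p of 0.0107 and uncertain assignment of reads.

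**Figure D3:**
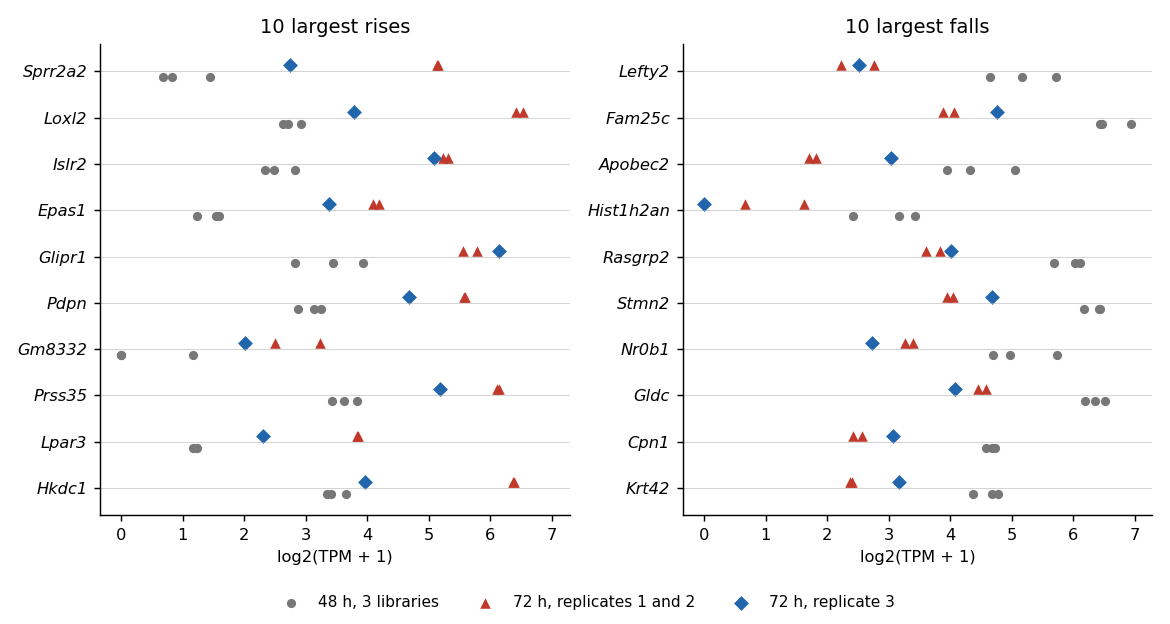
Level of the 10 largest rises (left) and 10 largest falls (right) in each library, as log2(TPM + 1) on the horizontal axis: grey circles, the 3 libraries at 48 h; red triangles, 72 h replicates 1 and 2; blue diamonds, 72 h replicate 3. The 48 and 72 h points of a gene do not overlap, which the choice of genes fixed; for all the rises except Glipr1 replicate 3 is the lowest of the 72 h libraries, far below the others for Sprr2a2, Loxl2, Lpar3 and Hkdc1.

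Most parietal endoderm markers rose, where 2.22% of all genes tested were called higher and 1.56% lower. Of 12 parietal endoderm markers tested, 8 were called higher and 0 lower, with a median change of 1.19 against 0.04 over all genes; 9 were called with replicates 1 and 2 and 4 with replicate 3. Sparc (chr11:55394500-55423183), a collagen-binding protein abundant in Reichert's membrane, was at 1789, 1857 and 1559.8 TPM at 48 h and 4783, 4907 and 2886 TPM at 72 h. It was higher in each 72 h library, least so in replicate 3, and changed by 1.24 ± 0.23 (SE; adjusted p = 0.000476). Col4a1 (chr8:11198423-11312826), the α1 chain of type IV collagen, was at 1004, 1117 and 759 TPM at 48 h and 2253, 2325 and 1832 TPM at 72 h, and its head-to-head neighbour Col4a2 (chr8:11312805-11449287) at 523, 585 and 417 TPM at 48 h and 1243, 1281 and 965 TPM at 72 h. They changed by 1.16 ± 0.13 (SE; adjusted p = 5.82e-06) and by 1.19 ± 0.17 (SE; adjusted p = 5.47e-05), and in the annotation their spans overlap by a few bases on opposite strands, while the libraries kept the strand. Pth1r, the receptor for parathyroid hormone-related peptide that marks parietal endoderm, was at 85.0, 96.8 and 54.0 TPM at 48 h and 318, 320.1 and 213 TPM at 72 h and changed by 1.86 ± 0.22 (SE; adjusted p = 8.77e-06). Stra6, a receptor for retinol-binding protein, was at 1.89, 2.49 and 1.21 TPM at 48 h and 8.47, 7.86 and 19.4 TPM at 72 h. For Stra6 replicate 3 was the highest, and the change was 2.09 ± 0.23 (SE; adjusted p = 3.12e-06).

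The remaining called members of that list were Snai1, Fst and Srgn. Snai1, a repressor of epithelial genes, changed by 1.19 ± 0.17 (SE; adjusted p = 5.68e-05), and Fst, the activin antagonist follistatin, was at 5.34, 5.18 and 4.72 TPM at 48 h and 28.8, 27.2 and 9.60 TPM at 72 h, a change of 1.77 ± 0.29 (SE; adjusted p = 0.000152). Fst libraries did not overlap, but replicate 3 had risen by 0.80, against 2.25 in the other replicates. Srgn, a proteoglycan core protein, changed by 1.20 ± 0.31 (SE; adjusted p = 0.00709). Among members not called, Lamb1, the laminin β1 chain, was at 826, 891 and 751 TPM at 48 h and 1870.0, 1885 and 1252 TPM at 72 h, and its change of 1.00 ± 0.13 (SE; adjusted p = 1.91e-05) lay at the fold minimum. Thbd and Plat changed by 0.87 and 0.63, and Vim, an intermediate filament of migrating cells, was at 187, 149.6 and 89.9 TPM at 48 h and 52.4, 67.5 and 44.8 TPM at 72 h, with a change of -1.31 ± 0.54 (SE; adjusted p = 0.0725). With a replicate block, or with only the 48 and 72 h groups in the fit, Vim was called lower and was then the 1 parietal marker so called. 

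Of 15 basement membrane components tested, 3 were called higher (Col4a1, Col4a2 and Sparc, which also stand in the list of parietal markers) and 1 lower. Of all genes tested, 2.22% were called higher and 1.56% lower. The median change of the list was 0.88, and by the adjusted p alone 10 were higher and 2 lower, beside 18.6% and 14.6% of all genes. With replicates 1 and 2 the calls were 8 higher, adding Lama1, Lamb1, Lamb2, Nid1 and Nid2, and with replicate 3 none was called higher. Lama1 and Lamc1, the other chains of the laminin trimer with Lamb1, were at 948, 1046 and 853 TPM at 48 h and 1911, 1944 and 1478 TPM at 72 h and at 1069, 1148 and 836 TPM at 48 h and 1756, 1847 and 1631 TPM at 72 h respectively. No 72 h library of either was as low as a 48 h library, and the changes of 0.90 ± 0.13 (SE; adjusted p = 5.49e-05) and 0.79 ± 0.11 (SE; adjusted p = 4.74e-05) were under the fold minimum. The member that fell was Col18a1, the collagen that carries endostatin, at 21.9, 20.8 and 24.9 TPM at 48 h and 8.68, 8.62 and 8.39 TPM at 72 h, a change of -1.29 ± 0.10 (SE; adjusted p = 7.45e-08) and the 72 h replicates close to each other. Lama5, a chain of other laminins, was lower by the adjusted p alone, at -0.66.

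Enzymes that modify collagen, most in the endoplasmic reticulum and some, such as Loxl2, outside the cell, were also higher. Of 18 enzymes and chaperones tested, 8 were called higher and 0 lower, beside 2.22% and 1.56% of all genes. The median change was 0.76, and 15 were higher by the adjusted p alone, beside 18.6% of all genes. The called enzymes were the prolyl 4-hydroxylase subunits P4ha1 and P4ha2, the lysyl hydroxylases Plod2 and Plod3, the prolyl 3-hydroxylase P3h2, its relatives P3h4 and Crtap, and Loxl2. P4ha1 was at 144, 154 and 144 TPM at 48 h and 375, 400.4 and 212 TPM at 72 h, with replicate 3 lower than the others and above 48 h, and P4ha2 at 212, 227 and 165 TPM at 48 h and 403, 422 and 421 TPM at 72 h, with all 3 alike. Plod3, the enzyme that also glycosylates collagen IV, was at 77.3, 91.6 and 66.8 TPM at 48 h and 198, 199.7 and 167 TPM at 72 h and changed by 1.26 ± 0.12 (SE; adjusted p = 1.08e-06). P3h4 changed by 1.45 ± 0.14 (SE; adjusted p = 1.46e-06). Serpinh1, the collagen chaperone HSP47, was already at 1868 ± 142 TPM at 48 h (SD, n = 3) and at 2579.6 ± 130.2 TPM at 72 h (SD, n = 3), a change of 0.47 ± 0.12 (SE; adjusted p = 0.00584) under the fold minimum. With replicate 3 only, 4 of the 8 were called, P4ha2, Plod3, P3h4 and Loxl2. Of 27 general folding and secretion genes of the endoplasmic reticulum, limma called 0 in either direction, with a median of 0.14. At an unadjusted limma p under 0.05, 11 were higher and 2 lower, beside 24.3% and 19.2% of all genes. By the adjusted p alone 37.0% of them passed, beside 33.2% of all genes.

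Simple epithelial keratins rose. Krt8 was at 65.1, 77.4 and 68.2 TPM at 48 h and 183, 185 and 158 TPM at 72 h and its partner Krt18 at 46.5, 49.6 and 41.1 TPM at 48 h and 137, 133 and 101 TPM at 72 h. All 72 h libraries of both lay well above all 48 h libraries, with changes of 1.31 ± 0.10 (SE; adjusted p = 9.01e-08) and 1.41 ± 0.15 (SE; adjusted p = 3.15e-06). Krt19 was at 6.78, 6.38 and 7.48 TPM at 48 h and 27.7, 22.0 and 10.3 TPM at 72 h, where replicate 3 was close to 48 h. These and Snai1 were the 4 called higher among 21 cadherins, keratins and genes of the epithelial to mesenchymal transition, and 0 were called lower. Of all genes tested, 2.22% were called higher and 1.56% lower. Cdh1 (E-cadherin), Cldn4 and Grhl2, genes of epithelial junctions, were lower by the adjusted p alone, at -0.78, -0.70 and -0.80, and were called lower with replicate 3 only. Among 17 integrins and adhesion genes, Zyx, a focal adhesion protein, rose (24.9, 29.2 and 24.5 TPM at 48 h and 57.4, 54.5 and 60.7 TPM at 72 h), and Itga6, the laminin-binding α6 integrin chain, fell (60.8, 54.6 and 71.8 TPM at 48 h and 33.9, 30.1 and 21.5 TPM at 72 h). Neither gene overlapped between times, with changes of 1.11 and -1.12.

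Some PrE transcription factors were called. Of 16 tested, 2 were called higher and 0 lower, beside 2.22% and 1.56% of all genes. The median was 0.32, and 7 were higher by the adjusted p alone, beside 18.6% of all genes. Foxa2, a forkhead factor of endoderm, was at 20.8, 26.2 and 16.3 TPM at 48 h and 47.9, 46.3 and 37.5 TPM at 72 h and changed by 1.04 ± 0.24 (SE; adjusted p = 0.00288). Klf6, a Krüppel-like factor, was at 60.9, 63.6 and 67.0 TPM at 48 h and 165, 177 and 82.0 TPM at 72 h, with replicate 3 nearest to 48 h, and changed by 1.06 ± 0.21 (SE; adjusted p = 0.000857). Sox17 was at 135, 167 and 131 TPM at 48 h and 243, 249.7 and 172 TPM at 72 h, with no overlap and a change of 0.60 ± 0.18 (SE; adjusted p = 0.0159) under the fold minimum. With replicate 3 only, none of the 16 was called. 

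Some genes of uptake were called, where 2.22% of all genes tested were called higher and 1.56% lower. Of 10 genes of the cubilin and megalin receptor complex, 1 was called higher, Myo6, a myosin that moves endocytic vesicles, at 57.9, 58.0 and 45.8 TPM at 48 h and 169, 169.8 and 61.8 TPM at 72 h. Its change of 1.16 ± 0.32 (SE; adjusted p = 0.00947) came mostly from replicates 1 and 2, since replicate 3 alone had changed by 0.20. Cubn (cubilin) was at 320.2, 354 and 221 TPM at 48 h and 597, 617 and 463 TPM at 72 h and Lrp2 (megalin) at 194, 217 and 111 TPM at 48 h and 288, 291 and 317 TPM at 72 h. Their changes of 0.92 ± 0.27 (SE; adjusted p = 0.0138) and 0.83 ± 0.31 (SE; adjusted p = 0.0449) passed the adjusted p but not the fold minimum. The list had a median of 0.69, and by the adjusted p alone 7 of the 10 were higher and 1 lower, beside 18.6% and 14.6% of all genes. Of 28 lysosome genes, 2 were called higher, with a median of 0.65. The adjusted p alone was passed by 18, all higher, beside 18.6% of all genes. Lgmn, the protease legumain, was at 277, 298 and 219.8 TPM at 48 h and 764, 818 and 410.1 TPM at 72 h, and Ctsh (cathepsin H) at 20.0, 17.4 and 11.1 TPM at 48 h and 72.5, 75.5 and 23.2 TPM at 72 h. They changed by 1.27 ± 0.20 (SE; adjusted p = 0.000101) and 1.62 ± 0.48 (SE; adjusted p = 0.0144). The lysosome list had a median change of 0.90 and 0.91 in 72 h replicates 1 and 2 and of 0.05 in replicate 3, and 10 genes were called without replicate 3 and 0 of 28 with it alone. Of 8 yolk sac carrier genes tested, Apom and Mttp, which act in lipoprotein assembly, were called higher and 0 lower, while the median was -0.25 and 3 of the 8 changes were above 0. Apoa2, an apolipoprotein, was lower by the adjusted p alone. Apom and Mttp were called with replicates 1 and 2 as well, and with replicate 3 only 0 were called higher and 1 lower, the apolipoprotein Apoc1. Mttp was at 4.64, 5.05 and 2.99 TPM at 48 h and 24.3, 26.9 and 3.72 TPM at 72 h, so its call rested on replicates 1 and 2, with a change of -0.12 in replicate 3 alone. Of the other 12 on that list, none reached the 1 TPM needed for a test, among them Afp and Ttr.

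Pluripotency factors changed by unequal amounts. Of 23 transcription factors tested, 4 were called lower and 0 higher, beside 1.56% and 2.22% of all genes, and the median was -0.36. By the adjusted p alone 13 were lower and 3 higher, beside 14.6% and 18.6% of all genes. Nr0b1 (chrX:86191764-86195947), the nuclear receptor DAX1, was at 30.4, 25.0 and 52.3 TPM at 48 h and 9.48, 8.60 and 5.64 TPM at 72 h, and changed by -2.01 ± 0.24 (SE; adjusted p = 6.83e-06). Esrrb (chr12:86361117-86521628), an orphan nuclear receptor, was at 57.0, 49.9 and 74.7 TPM at 48 h and 24.9, 28.8 and 12.9 TPM at 72 h. All 72 h libraries were below 48 h and replicate 3 was the lowest, with a change of -1.46 ± 0.29 (SE; adjusted p = 0.000856). Sox2 (chr3:34650405-34652461) was at 46.9, 41.9 and 54.2 TPM at 48 h and 24.1, 25.8 and 11.7 TPM at 72 h, again with replicate 3 lowest, a change of -1.25 ± 0.20 (SE; adjusted p = 0.000139) over all libraries and of -0.90 without replicate 3, which is under the fold minimum. Utf1, a chromatin factor of pluripotent cells, was at 267, 252 and 280.4 TPM at 48 h and 89.1, 91.1 and 203 TPM at 72 h, with replicate 3 the highest of the 72 h libraries. Utf1 changed by -1.16 ± 0.20 (SE; adjusted p = 0.00022).

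Among factors not called, Nanog was at 25.7, 21.2 and 36.5 TPM at 48 h and 16.2, 16.0 and 8.87 TPM at 72 h, a change of -0.98 ± 0.22 (SE; adjusted p = 0.00197) just inside the fold minimum. Pou5f1 (chr17:35506018-35510772), which encodes OCT4, was at 1150.5, 1141 and 1217 TPM at 48 h and 867, 935 and 873 TPM at 72 h. Its 72 h libraries were all below those of 48 h, yet the change of -0.39 ± 0.25 (SE; adjusted p = 0.248) did not pass, and Pou5f1 remained among the more abundant transcripts. Klf5, Sall4 and Stat3 were higher by the adjusted p alone, at 0.23, 0.40 and 0.42. With replicate 3 only, 6 factors were called lower, Sox2, Nanog, Esrrb, Klf2, Tfcp2l1 and Nr0b1, and with replicates 1 and 2 there were 3, Esrrb, Nr0b1 and Utf1.

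Of 26 other ES cell markers tested, 3 were called lower and 0 higher, beside 1.56% and 2.22% of all genes. The median was -0.71, and 17 were lower by the adjusted p alone, beside 14.6% of all genes. Tdgf1 (chr9:110939603-110946158), the NODAL co-receptor Cripto, was at 39.8, 29.3 and 56.0 TPM at 48 h and 23.8, 26.1 and 9.04 TPM at 72 h, where replicate 3 was far below the others, with a change of -1.13 ± 0.31 (SE; adjusted p = 0.00961). Trh, which codes for thyrotropin-releasing hormone, was at 7.06, 4.71 and 5.77 TPM at 48 h and 1.48, 1.98 and 0.618 TPM at 72 h and changed by -1.57 ± 0.24 (SE; adjusted p = 9.31e-05). Jam2, a junctional adhesion molecule, changed by -1.13 ± 0.22 (SE; adjusted p = 0.000615). Replicate 3 only gave 11 calls of 26, all lower, and replicates 1 and 2 gave 3. Of 10 formative epiblast genes tested, 1 was called lower, Etv4. By the adjusted p alone 6 of these genes were lower and 0 higher, beside 14.6% and 18.6% of all genes. Replicates 1 and 2 gave 3 calls, all lower, and replicate 3 only gave 0. Dnmt3b, a de novo DNA methyltransferase, was at 331, 321 and 291 TPM at 48 h and 117, 127 and 286 TPM at 72 h, with a change of -0.95 ± 0.20 (SE; adjusted p = 0.00156). In replicate 3 Dnmt3b was just under the lowest 48 h library, a change of -0.13, while in the other replicates it was -1.36. Of the 10 DNA methylation genes, limma called 0, with 1 higher and 5 lower at an unadjusted p under 0.05, beside 24.3% and 19.2% of all genes.

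**Figure D4:**
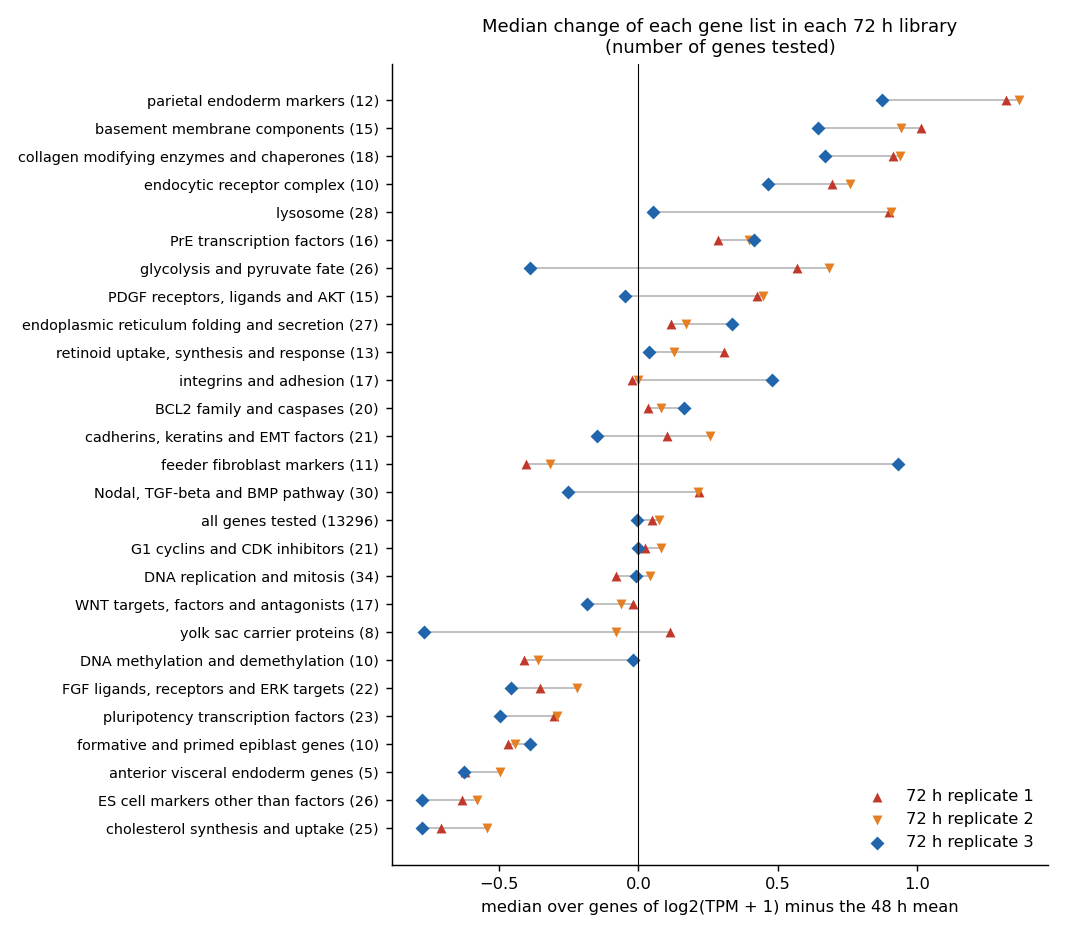
Median change of each gene list in each 72 h library, as log2(TPM + 1) minus the mean of the 48 h libraries (horizontal axis), with the number of genes tested in brackets: triangles, replicates 1 and 2; diamonds, replicate 3. Parietal endoderm markers, basement membrane and collagen enzymes are above 0 in all 3 libraries and ES cell markers and cholesterol genes below 0 in all 3, while for lysosome, glycolysis and fibroblast genes replicate 3 lies apart.

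Of 30 genes of the NODAL, TGF-beta and BMP pathways tested, 3 were called higher and 4 lower, beside 2.22% and 1.56% of all genes. The median was 0.05, and by the adjusted p alone 11 were higher and 7 lower, beside 18.6% and 14.6% of all genes. The genes called lower were the ligand Nodal, its co-receptor Tdgf1 and its feedback antagonists Lefty1 and Lefty2. Without replicate 3 these were called except Tdgf1, and with replicate 3 only the calls were Tdgf1, Lefty2 and the ligand Gdf3. Nodal itself was at 7.5, 6.48 and 9.59 TPM at 48 h and 2.54, 1.85 and 3.53 TPM at 72 h, without overlap, and changed by -1.29 ± 0.17 (SE; adjusted p = 2.64e-05). The antagonist Lefty1 was at 16.8, 11.5 and 13.3 TPM at 48 h and 2.20, 4.94 and 4.18 TPM at 72 h and changed by -1.67 ± 0.38 (SE; adjusted p = 0.00265), and Lefty2 and Tdgf1 are given above. The genes that rose were Bmp2, Nog and Fst. Bmp2, a ligand of the BMP branch, was at 9.03, 9.70 and 5.50 TPM at 48 h and 24.6, 26 and 15.6 TPM at 72 h, and the BMP antagonist Nog (noggin) at 0.193, 0.264 and 0.213 TPM at 48 h and 6.42, 5.14 and 3.17 TPM at 72 h. All 72 h libraries of Nog were well above all 48 h libraries, where it was near 0, and it changed by 2.23 ± 0.22 (SE; adjusted p = 1.18e-06). Bmp2 changed by 1.35 ± 0.19 (SE; adjusted p = 3.67e-05), and Fst is given with the parietal markers. Apart from the co-receptor Tdgf1, receptors and SMADs of these pathways were not called.

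Some FGF and WNT genes were called, where 2.22% of all genes tested were called higher and 1.56% lower. Of 22 FGF ligands, receptors and ERK targets, 1 was called lower, Etv4, an ETS factor induced by ERK, at 35.3, 32.2 and 39.5 TPM at 48 h and 11.0, 10.7 and 18.1 TPM at 72 h. Etv4 changed by -1.39 ± 0.16 (SE; adjusted p = 3.94e-06). By the adjusted p alone 12 of the list were lower and 3 higher, beside 14.6% and 18.6% of all genes, with a list median of -0.44. Fgf4, the ligand made by ES cells, was at 6.76, 6.83 and 9.63 TPM at 48 h and 5.70, 6.26 and 2.27 TPM at 72 h, all 72 h libraries below all of 48 h and replicate 3 the lowest. The feedback inhibitors Spry4 and Spred1 were at -0.91 and -0.99 on the log2 scale, just under the fold minimum. Among 17 WNT genes, the effector Tcf7l2, the ligand Wnt11 and the antagonist Frzb were called higher and the antagonist Sfrp1 and the ligand Wnt6 lower, with a median of -0.01. Tcf7l2 was at 6.02, 6.16 and 3.95 TPM at 48 h and 14.7, 14.0 and 11.0 TPM at 72 h and Wnt11 at 6.72, 7.74 and 5.41 TPM at 48 h and 28.6, 23.6 and 14.6 TPM at 72 h. Neither overlapped between times, with changes of 1.17 ± 0.13 (SE; adjusted p = 4.92e-06) and 1.57 ± 0.30 (SE; adjusted p = 0.000687). Frzb rose in replicates 1 and 2 (1.87) and was at 0.17 in replicate 3. Of 5 genes tested among anterior visceral endoderm genes, 1, Lefty1, was called. For PDGF receptors, their ligands and AKT kinases, limma called 0 of 15. At an unadjusted limma p under 0.05, 7 were higher and 1 lower, beside 24.3% and 19.2% of all genes. The adjusted p alone was passed by 33.3%, beside 33.2% of all genes.

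Most cholesterol genes were lower by the adjusted p alone. Of 25 genes of cholesterol synthesis, uptake and export, 2 were called lower and 1 higher, beside 1.56% and 2.22% of all genes. By the adjusted p alone 19 were lower and 1 higher, beside 14.6% and 18.6% of all genes. The median was -0.59, and it was -0.71, -0.54 and -0.78 in the 3 libraries of 72 h. With replicates 1 and 2 the calls were 3 lower and 1 higher, adding Sqle (squalene epoxidase), and with replicate 3 only 7 lower and 1 higher. Idi1, which makes the isoprenoid building block dimethylallyl diphosphate, was at 84.7, 82.3 and 84.8 TPM at 48 h and 32.0, 41.0 and 37.2 TPM at 72 h, and Msmo1, a sterol demethylase, at 103, 104 and 114 TPM at 48 h and 50.6, 54.4 and 39.4 TPM at 72 h. All 72 h libraries of both lay well below 48 h, with changes of -1.18 ± 0.10 (SE; adjusted p = 3.14e-07) and -1.15 ± 0.14 (SE; adjusted p = 6.82e-06). Abca1, the pump that exports cholesterol from the cell, moved the other way, at 1.77, 2.14 and 2.04 TPM at 48 h and 8.05, 9.15 and 7.16 TPM at 72 h, a change of 1.61 ± 0.12 (SE; adjusted p = 7.45e-08).

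Retinoid genes moved in both directions. Of 13 tested, 2 were called higher and 2 lower, beside 2.22% and 1.56% of all genes. Stra6 is given above, and Cyp26a1, the enzyme that breaks down retinoic acid, was at 6.05, 6.24 and 3.86 TPM at 48 h and 41.4, 40.1 and 5.45 TPM at 72 h. In replicate 3 Cyp26a1 was within the range of 48 h. Aldh1a3, which makes retinoic acid, was at 3.37, 2.62 and 3.07 TPM at 48 h and 0.883, 0.689 and 1.03 TPM at 72 h, and Crabp1, a retinoic acid binding protein, at 5.31, 5.77 and 7.13 TPM at 48 h and 0.872, 1.85 and 4.22 TPM at 72 h. Aldh1a3 libraries did not overlap, and its change was -1.10 ± 0.15 (SE; adjusted p = 2.21e-05), while that of Crabp1 was -1.21 ± 0.43 (SE; adjusted p = 0.0359).

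Of 34 replication and mitosis genes, limma called 0, with a median of 0.00. At an unadjusted limma p under 0.05, 6 were higher and 10 lower, beside 24.3% and 19.2% of all genes. By the adjusted p alone 35.3% of them passed, beside 33.2% of all genes. Mki67, a marker of cycling cells, was at 86.7, 87.9 and 78.0 TPM at 48 h and 101, 111 and 100.5 TPM at 72 h. Among 21 G1 cyclins and CDK inhibitors, the D-type cyclins went opposite ways, Ccnd2 up at 6.23, 7.09 and 9.99 TPM at 48 h and 21.1, 19.3 and 18.6 TPM at 72 h and Ccnd1 down at 29.8, 27.9 and 23.1 TPM at 48 h and 4.73, 4.71 and 21.8 TPM at 72 h. The change of Ccnd2 was 1.26 ± 0.31 (SE; adjusted p = 0.00414), and that of Ccnd1 was -1.62 ± 0.33 (SE; adjusted p = 0.00124), of which replicates 1 and 2 gave -2.28 and replicate 3 -0.29. Cdkn1c, the CDK inhibitor p57, was at 14.0, 20.4 and 18.7 TPM at 48 h and 64.1, 56.0 and 36.4 TPM at 72 h and changed by 1.49 ± 0.25 (SE; adjusted p = 0.000236). Cdkn1a, the inhibitor p21, was at 27.4, 26.6 and 25.5 TPM at 48 h and 38.0, 39.2 and 75.9 TPM at 72 h, under the fold minimum with all libraries (0.85) and called with replicate 3 only (1.48). Of 20 BCL2 family members and caspases, 1 was called higher and 1 lower, beside 2.22% and 1.56% of all genes. Casp8, the initiator caspase of death receptors, rose (1.16) and Bok, a pro-apoptotic BCL2 relative, fell (-1.06). By the adjusted p alone 6 of the list were higher and 4 lower, beside 18.6% and 14.6% of all genes. The list's median was 0.11 with all libraries, and 0.04, 0.08 and 0.16 in 72 h replicates 1, 2 and 3.

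Glycolysis genes divided the 72 h libraries. Of 26 genes of glycolysis and pyruvate fate, limma called 0 with all libraries. At an unadjusted limma p under 0.05, 6 were higher and 2 lower, beside 24.3% and 19.2% of all genes. The adjusted p alone was passed by 26.9%, beside 33.2% of all genes. With replicates 1 and 2 only, 6 were called higher, Slc2a1, Aldoc, Slc16a1, Slc16a3, Bnip3 and Egln3. With replicate 3 only, 6 were called lower, Pfkp, Aldoc, Ldhb, Pdk1, Bnip3 and Egln3. The list's median was 0.57 and 0.68 in replicates 1 and 2 and -0.39 in replicate 3. Bnip3, a mitochondrial protein induced by low oxygen, was at 85.0, 86.6 and 111 TPM at 48 h and 266, 305 and 32.1 TPM at 72 h. Aldoc (aldolase C) was at 15.0, 15.4 and 20.5 TPM at 48 h and 37.1, 39.6 and 3.21 TPM at 72 h and Egln3, a HIF prolyl hydroxylase, at 7.70, 6.89 and 8.15 TPM at 48 h and 26.6, 26.6 and 2.65 TPM at 72 h. For all 3 genes replicates 1 and 2 were above every 48 h library and replicate 3 below every 48 h library. The glucose transporter Slc2a1 was at 114, 114 and 111 TPM at 48 h and 229, 229.9 and 97.8 TPM at 72 h, and the lactate exporter Slc16a3 at 119.8, 115 and 122 TPM at 48 h and 304, 318 and 60.8 TPM at 72 h. Epas1, given above, rose in all 3 libraries, and its relation to the split of these genes was not tested. Fibroblast marker sums also set replicate 3 apart, in the opposite direction, at 66.73 and 79.13 TPM in replicates 1 and 2 and 193.4 TPM in replicate 3. The part of fibroblasts in the changes of these genes was not tested.

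**Figure D5:**
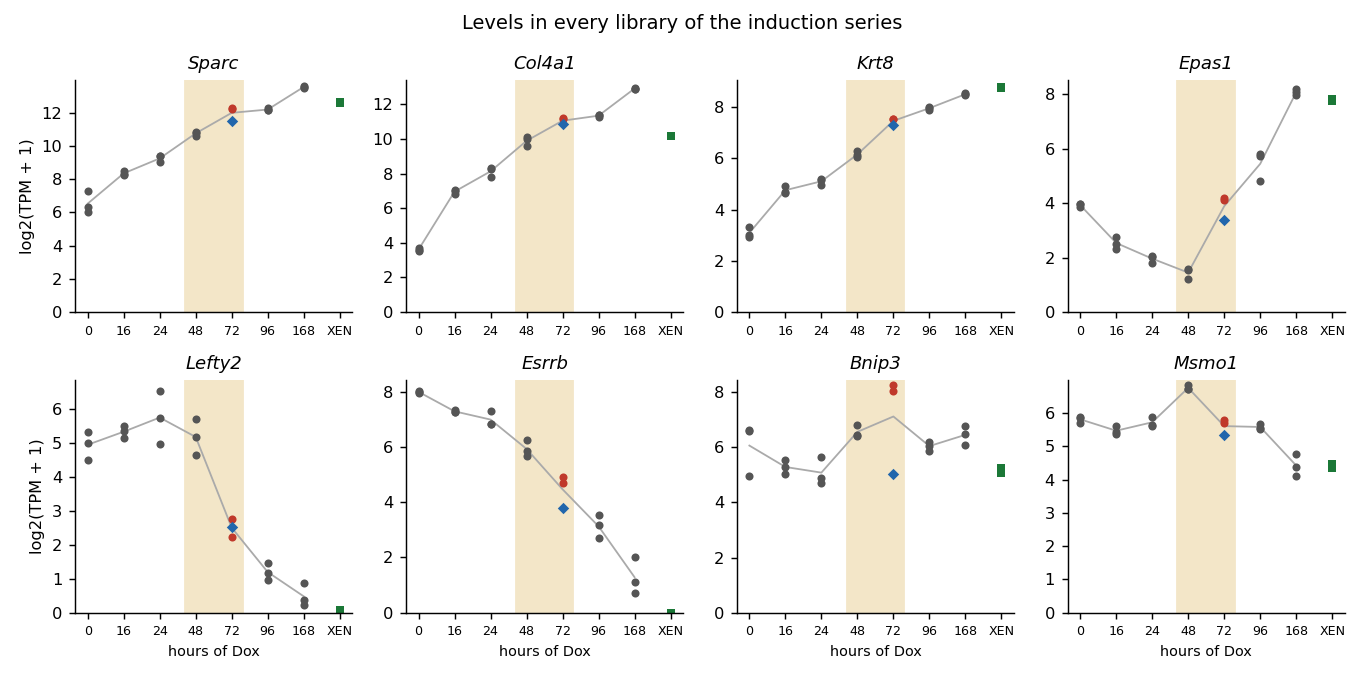
Level of 8 genes in each library of the induction series as log2(TPM + 1) (vertical axis) against hours of Dox, placed at equal distances, with XEN cells at the right: circles, libraries; blue diamond, 72 h replicate 3; green squares, XEN cells; grey line, mean of the libraries; shaded band, the step from 48 to 72 h. Sparc, Col4a1 and Krt8 go up and Lefty2, Esrrb and Msmo1 down across the band, Epas1 turns from a fall to a rise at 48 h, and Bnip3 is spread widely at 72 h.

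To ask which changes set the third day apart from the days around it, the change over the third day was tested against that over the second (24 to 48 h) and over the fourth (72 to 96 h), each a period of 24 h. The comparisons share libraries, which the fit accounts for as a contrast of group means, and 72 h libraries enter that with the fourth day with a weight of 2. The change exceeded that of the second day in 84 genes (0.632%) and was below it in 168 (1.26%). Without 72 h replicate 3 these counts were 254 and 236, and with replicate 3 only 208 and 493. The 5 largest excesses were those of Sprr2a2, Epas1, Gm18939, Myof and Kit. Epas1 had changed by -0.51 in the second day and by 2.44 in the third, a difference of 2.95 ± 0.37 (SE; adjusted p = 0.000184). Myof, a membrane repair protein, had changed by -1.15 and then by 1.29, and Kit, the receptor for stem cell factor, by -0.71 and then by 1.48. Kit was at 7.71, 7.13 and 6.30 TPM at 48 h and 31.8, 28.8 and 10.4 TPM at 72 h, with replicate 3 the least changed. 

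For the 5 genes at the other end the change was upwards in the second day and smaller or downwards in the third. Cubn had changed by 4.97 in the second day and by 0.92 in the third, a difference of -4.05 ± 0.47 (SE; adjusted p = 6.76e-05). Srgn had changed by 4.54 and then by 1.20, and Dab2, the adaptor that clusters megalin and cubilin, by 3.10 and then by 0.39. Dab2 was at 794, 855 and 489 TPM at 48 h and 883, 947 and 901 TPM at 72 h, without overlap between times. Sapcd1 had changed by 0.95 and then by -1.66, and the histone gene H2ac7, which has near-identical copies, by 1.29 and then by -1.51.

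Against the fourth day, 275 genes (2.07%) had a larger and 138 (1.04%) a smaller change in the third day, with all 72 h libraries. After median-of-ratios rescaling they were 232 and 193, so the balance of directions depends on the scaling. The counts also rest on which libraries are used: in limma they were 1600 and 758 without 72 h replicate 3, 15 and 6 without replicate 1, 14 and 12 without replicate 2, and 15 and 33 with replicate 3 only. With only the groups of the contrast in the fit they were 0 and 0. The 5 largest excesses, Gm8332, Sprr2a2, Timp3, A4galt and S1pr1, had adjusted p-values of 0.00867 to 0.0327, and with replicate 3 only none of them passed. S1pr1, a receptor for sphingosine 1-phosphate, was at 3.76, 3.99 and 3.78 TPM at 48 h and 19.8, 19.5 and 8.43 TPM at 72 h, and at 9.85 ± 0.709 TPM at 96 h (SD, n = 3). Timp3, an inhibitor of matrix proteases, was at 10.2, 11.0 and 12.7 TPM at 48 h and 62.8, 63.0 and 31.2 TPM at 72 h and at 41.5 ± 1.44 TPM at 96 h (SD, n = 3). At 96 h the means of both lay between replicate 3 and the other 72 h libraries. Ccnd1 was among the 5 largest differences in the other direction with Hist1h2an, H2ac7, Pvt1 and Map7d2, at a difference of -2.17 with all 72 h libraries, -3.50 without replicate 3 and 0.49 with replicate 3 only.

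Comparisons that share no library with the step were used to follow its genes earlier and later. At 24 h against 0 h, 472 genes were higher (3.55%) and 224 lower (1.68%). Of the 295 genes raised in the third day, 40 (13.6%) were already called higher in that first comparison and 4 lower, and 251 were not called. Of the 208 lowered, 28 (13.5%) had been called lower and 30 (14.4%) higher. Those 30 had therefore been raised by 24 h of Dox and were lowered between 48 and 72 h. They include Apobec2, Cpn1, Fam25c, Sapcd1, Wnt6 and Aldh1a3, and, named after their values were seen, Has2, Tbx1 and C2cd4a. The mean of Apobec2 before Dox was 0.870 ± 0.261 TPM, after 24 h it was 23.6 ± 2.20 TPM, after 48 h 21.9 ± 9.16 TPM and after 72 h 4 ± 2.79 TPM (3 libraries each, with SD). Has2, a hyaluronan synthase, was at 6.46, 6.69 and 5.69 TPM at 48 h and 0.832, 1.02 and 3.18 TPM at 72 h, and Tbx1, a T-box factor, at 1.98, 2.08 and 2.06 TPM at 48 h and 0.284, 0.476 and 0.669 TPM at 72 h. The 4 genes with the opposite course, lower at 24 h and higher in the third day, were Epas1, Nkain4, Trp53i11 and Vsig2. Nkain4 and Vsig2 were above 48 h in replicates 1 and 2 only.

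Between 96 and 168 h, 664 genes were higher (4.99%) and 365 lower (2.75%). Of the 295, 123 (41.7%) were called higher there and 15 (5.08%) lower, and the 123 were 18.5% of the 664. By 168 h Loxl2 had reached 609.6 ± 27.1 TPM, Epas1 269 ± 20.6 TPM and Sparc 12001 ± 411 TPM (SD, n = 3). The 15 that were lower after 96 h include Sprr2a2, Gm8332, Cdkn1c, Rhox9 and Plac1. Sprr2a2 went from 21.8 ± 3.78 TPM (SD, n = 3) to 9.08 ± 0.549 TPM (SD, n = 3) in that time. Of the 208 lowered genes, 50 (24.0%) were called lower again and 5 (2.4%) higher. With the step taken from replicates 1 and 2 only, 216 of 586 (36.9%) were higher and 70 of 293 (23.9%) lower between 96 and 168 h.

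In XEN cells against 0 h, 2568 of the genes tested were higher (19.3%) and 2328 lower (17.5%). Of the 295 genes raised in the third day, 230 (78.0%) were called higher in XEN cells and 8 (2.71%) lower. Of the 208 lowered genes, 164 (78.8%) were called lower in XEN cells and 2 (0.962%) higher. With replicates 1 and 2 only, these shares were 361 of 586 (61.6%) and 190 of 293 (64.8%). XEN cells are of another strain than the induced cells, and strain and cell type cannot be told apart in this comparison.

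A few genes went against that direction. Among higher genes without overlap and of at least 5 TPM, 6 were called lower in XEN cells than at 0 h, the largest being Cdkn1c, Tnk1, Gpc3, Gm44732 and Rhox9. Cdkn1c was at 14.7 ± 5.42 TPM at 0 h (SD, n = 3) and 0.733 ± 0.0504 TPM in XEN cells (SD, n = 2), while at 72 h it was at 52.2 ± 14.2 TPM (SD, n = 3). Gm44732 lies inside the span of Cdkn1c at chr7:143459749-143460640, so their reads may not be separable unless strand tells them apart. Gpc3, a glypican that holds growth factors at the cell surface, was at 41.6, 42.2 and 36.9 TPM at 48 h and 155, 171 and 42.6 TPM at 72 h, and Tnk1, a non-receptor kinase, at 18.7, 20.3 and 15.4 TPM at 48 h and 75.4, 71.8 and 21.2 TPM at 72 h. In both, replicate 3 was close to 48 h. Rhox9, a homeobox gene of the X-linked Rhox cluster, was at 28.3, 40.7 and 37.3 TPM at 48 h and 110.4, 97.9 and 45.9 TPM at 72 h. The only lowered gene of this kind was Cgnl1, a tight junction protein, at 24.0, 22.5 and 23.1 TPM at 48 h and 7.25, 8.14 and 14.0 TPM at 72 h and at 28.6 ± 0.756 TPM in XEN cells (SD, n = 2).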

How the data were processed

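Gene expression was measured by stranded polyA RNA-seq, paired-end with reads of 150 bases. Per the study's methods, the authors used STAR to align to mm10 and RSEM to quantify genes, and deposited TPM values. The methods also mention an exclusion step that rests on principal components, without saying whether genes or libraries were excluded. The submitters' processing notes also list cutadapt and bcl2fastq. Versions and gene annotation are not given in the sources used here. All columns of the induction table matched sample titles, which gave the groups. TPM holds no read number, so no counting interval is given, and a gene at 0 is only listed at 0. The siRNA table was not used here.

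Of the rows of the 60 symbols listed more than once, that of highest mean was used. Values were used as log2(TPM + 1). Genes whose mean reached 1 TPM at 48 or 72 h were fitted with limma 3.58.1 in R 4.3.3 (lmFit, contrasts.fit, eBayes with trend and robust) over all 23 induction libraries, with a coefficient per group and no replicate block, with Benjamini-Hochberg adjustment over the 13296 genes. Calls needed an adjusted p under 0.05 and an absolute log2 change above 1. Alone, 3 libraries against 3 allow no exact permutation p under 0.1. On simulated data of 13296 genes for this comparison, 197 of 200 changes of 2 on the log2 scale were recovered, with 1 false call. Recovery and false calls where 1 library stands apart from its group, as 72 h replicate 3 did, were not tested. Recovery of changes close to the fold minimum was not tested.

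Named genes were the 10 largest rises and falls among called genes without overlap and with a mean of 5 TPM, the 5 largest of each other contrast and of the genes against the direction of XEN cells or not called at 24 h, and the called members of the lists with up to 4 defining others. Some list members are not reported here and were left out of the list counts. The members and lists were chosen with earlier results of these data known. Alternatives were rescaling, filters, pseudocount, thresholds, eBayes options, the groups fitted, a replicate block and each library left out; the use of 72 h replicate 3 as the only 72 h library was added after the data had been seen. Gene spans came from GENCODE M21 (mm10), promoters from RefSeq (GRCm38.p6). Summaries used Python 3.11.15, numpy 2.4.6, pandas 2.3.3 and matplotlib 3.10.9.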

Additional observations from a re-analysis of the deposited data

Results flagged for a closer look

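The change over the third day differed from that over the second in 84 genes upwards and 168 downwards, and from that over the fourth in 275 upwards and 138 downwards, by limma's test of the difference itself. The values below are differences of log2 changes, the third day minus the other day, whose libraries are in part shared.

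Against the second day, the largest differences upwards were 3.02 for Sprr2a2, 2.95 for Epas1, 2.94 for Gm18939, 2.44 for Myof and 2.18 for Kit. Downwards they were -4.05 for Cubn, -3.34 for Srgn, -2.80 for H2ac7, -2.70 for Dab2 and -2.61 for Sapcd1. All kept their direction under the alternatives run, with Epas1 between 2.45 and 3.65 and Cubn between -4.46 and -3.67. With 72 h replicate 3 only, H2ac7 had an adjusted p of 0.0517 and the others remained under 0.05.

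Against the fourth day, the largest differences upwards were 3.28 for Gm8332, 3.21 for Sprr2a2, 2.32 for Timp3, 2.31 for A4galt and 2.27 for S1pr1. Downwards they were -3.74 for Hist1h2an, -2.58 for H2ac7, -2.17 for Ccnd1, -1.79 for Pvt1 and -1.66 for Map7d2. With 72 h replicate 3 only, the differences were 2.15, 0.02, 1.00, 0.67 and 0.76 upwards and -5.27, -1.35, 0.49, -0.75 and -0.53 downwards in the same order, with adjusted p-values of 0.231 to 0.993, so Ccnd1 changed sign. Which of the 72 h libraries represents that time was not tested.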

How the results depend on the processing

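The counts of 295 higher and 208 lower genes ranged from 236 to 586 and from 197 to 293 when each library was left out in turn, the highest of both without 72 h replicate 3. With replicate 3 as the only 72 h library they were 183 and 399. Without a fold minimum they were 2470 and 1947, at a minimum of 1.5 on the log2 scale 71 and 39, and a pseudocount of 0.1 gave 499 lower genes. Against the second day (84 and 168), leaving out a library gave 40 to 254 and 90 to 236, with 41 and 90 without 48 h replicate 1 and 40 and 94 without 48 h replicate 2. Replicate 3 only gave 208 and 493, only the groups of the contrast 23 and 53, no fold minimum 248 and 328, a minimum of 1.5 29 and 71, an adjusted p under 0.01 32 and 81, and a mean of 5 TPM 51 upwards. Against the fourth day (275 and 138), leaving out a library gave 14 to 1600 and 6 to 758, with 128 and 67 without 48 h replicate 1, 119 and 69 without 96 h replicate 1 and 131 and 67 without 96 h replicate 2. No filter gave 166 and 75, only the groups of the contrast 0 and 0, replicate 3 only 15 and 33, no fold minimum 568 and 457, a minimum of 1.5 102 and 28, and an adjusted p under 0.01 37 and 13. A replicate block gave 296 and 208, 74 and 146, and 187 and 87. Deviations of same-numbered 48 and 72 h libraries correlated at -0.14, -0.11 and -0.19, so the numbers were not taken as pairs.

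Of the shares in other comparisons, the 13.6% of higher genes already higher at 24 h became 36.1% without a fold minimum and 4.23% at 1.5. The 13.5% of lower genes lower at 24 h became 23.8% without a minimum, and the 24.0% lower after 96 h became 12.6% with a pseudocount of 0.1, 14.3% with replicate 3 only and 46.5% without a minimum. Leaving out a library kept these shares at 10.4 to 15.1%, 9.56 to 14.9% and 19.6 to 24.9%, and those of the shares higher after 96 h at 36.8 to 44.5%, higher in XEN cells at 61.6 to 79.7% and lower in XEN cells at 64.8 to 82.8%. Of 116 genes followed, changes reversed only with replicate 3 as the only 72 h library, in 5: Mttp at -0.12, Bnip3 at -1.51, Aldoc at -2.08, Egln3 at -1.23 and Pdk1 at -1.42. The cause of these differences was not tested, apart from the fold minimum, whose effect follows from its construction. TPM gives no depth, so what depth limits cannot be stated.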

Other observations

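Among the 12 genes called in opposite directions by 72 h replicates 1 and 2 and by replicate 3, those not described above include Pygl, the liver form of glycogen phosphorylase, at 2.84, 3.42 and 5.99 TPM at 48 h and 15.2, 15.2 and 1.44 TPM at 72 h, Plac8 at 24.3, 25.4 and 30.6 TPM at 48 h and 55.9, 63.8 and 11.3 TPM at 72 h and Pdcd4, an inhibitor of translation, at 46.9, 50.3 and 80.9 TPM at 48 h and 189.9, 199 and 17.4 TPM at 72 h. In each, replicates 1 and 2 were above and replicate 3 below the 48 h libraries. The 2 genes with the opposite pattern were Acta2, smooth muscle actin, at 33.4, 32.7 and 40.5 TPM at 48 h and 8.23, 10.7 and 98.3 TPM at 72 h and Trib2, a pseudokinase, at 4.69, 5.42 and 4.09 TPM at 48 h and 0.771, 1.79 and 12.4 TPM at 72 h. These genes were named after their values were seen, and no test beyond the calls was made.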
